A study of Sus scrofa with 14 samples.

Results

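The adipogenic transcription factors described here are PPARG, CEBPA, CEBPB, CEBPD, EBF1, EBF2, KLF15, ZNF423, NR1H3 and SREBF1. The list names genes by symbol, chosen for what they are known to do and not by a cutoff on their values. Earlier results of these data were known when it was chosen. All 10 of 10 listed symbols were found, each with 1 Ensembl gene, among 21280 genes with expression values. Adipose tissue from 2-year-old female pigs was studied, from the wild boar (WB) and from the Bama pig (BM), a small domestic breed. Each pig gave fat of the greater omentum (GOM), a visceral depot, and of the upper layer of backfat (ULB), a subcutaneous depot. RNA-seq and Hi-C libraries numbered 7 each here, with 2 of WB GOM, 2 of BM GOM, 2 of WB ULB and 1 of BM ULB, which carries replicate number 2. The pigs are 4 animals, 2 of each breed, untreated and without any engineered allele. Each RNA-seq library is bulk tissue. The Hi-C libraries were made from the upper layer, which contains the adipocytes, of centrifuged cross-linked tissue. The breeds were kept on 1 farm and fed alike, but the wild boars had been brought into captivity young, and breed cannot be told apart from that early life. A difference measured in bulk fat cannot separate fewer cells of a type from less RNA per cell.

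Fat cells form when a precursor commits to the lineage and then fills with lipid, and a small cascade of DNA-binding proteins carries this out. EBF1, EBF2 and ZNF423 are known for marking committed precursors, CEBPB and CEBPD for the first response to adipogenic hormones, and KLF15 for a later step that follows them. PPARG and CEBPA sustain each other and switch on the genes of the mature adipocyte, whereas NR1H3 (the liver X receptor alpha) and SREBF1 (a membrane-bound precursor released when lipid is needed) drive fatty acid and sterol genes. All of these genes stay active in mature fat as well, so their level in whole tissue reports on several cell types together.

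The loci were read on Sscrofa11.1 through the gene symbols. PPARG (ENSSSCG00000011579) lies at chr13:68301566-68433951 on the plus strand, CEBPA (ENSSSCG00000002866) at chr6:43083200-43085884 on the minus strand, CEBPB (ENSSSCG00000034207) at chr17:51722633-51723673 on the plus strand and CEBPD (ENSSSCG00000032367) at chr4:79872863-79874481 on the plus strand. EBF1 (ENSSSCG00000017046) lies at chr16:64357999-64753188 on the plus strand, EBF2 (ENSSSCG00000009655) at chr14:9816992-10027574 on the minus strand, KLF15 (ENSSSCG00000036742) at chr7:53877813-53890558 on the minus strand and ZNF423 (ENSSSCG00000002838) at chr6:34929286-35299695 on the plus strand. NR1H3 (ENSSSCG00000013241) lies at chr2:15315283-15336785 on the minus strand and SREBF1 (ENSSSCG00000033626) at chr12:60733967-60750951 on the plus strand. The 3 C/EBP genes have a single exon in RefSeq and span 1041 to 2685 bases, while the genes of EBF1 and ZNF423 extend over 395190 and 370410 bases. CEBPB and SREBF1 are among the most GC-rich genes of the pig: their exons hold 72.0% and 68.6% G and C, against a median of 51.6% over 13521 placed genes.

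For 4 members on which the results turn, the 200 bases just before the RefSeq start site are shown. CEBPD and KLF15 are shown because their RNA levels were the most alike of any pair of members over the 7 libraries, PPARG because its compartment score was lower in the GOM than in the ULB, and NR1H3 because its RNA level separated the depots. Capitals mark GC boxes (GGGCGG or its reverse complement CCGCCC, overlapping matches merged) and CCAAT boxes (CCAAT or ATTGG).
CEBPD, chr4:79872663-79872862, plus strand: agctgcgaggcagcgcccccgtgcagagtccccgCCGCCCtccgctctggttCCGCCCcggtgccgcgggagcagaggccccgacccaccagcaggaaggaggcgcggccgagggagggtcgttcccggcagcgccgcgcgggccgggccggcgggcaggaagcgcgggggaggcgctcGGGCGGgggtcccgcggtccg
KLF15, chr7:53890559-53890758, minus strand: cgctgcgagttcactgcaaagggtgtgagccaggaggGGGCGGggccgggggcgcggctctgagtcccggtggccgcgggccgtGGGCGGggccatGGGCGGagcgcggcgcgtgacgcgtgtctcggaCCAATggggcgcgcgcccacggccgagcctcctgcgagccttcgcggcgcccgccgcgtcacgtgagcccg
PPARG, chr13:68301366-68301565, plus strand: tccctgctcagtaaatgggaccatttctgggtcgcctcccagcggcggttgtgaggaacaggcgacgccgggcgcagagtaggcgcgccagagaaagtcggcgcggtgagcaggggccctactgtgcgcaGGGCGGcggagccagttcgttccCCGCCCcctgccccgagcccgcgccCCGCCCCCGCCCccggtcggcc
NR1H3, chr2:15336786-15336985, minus strand: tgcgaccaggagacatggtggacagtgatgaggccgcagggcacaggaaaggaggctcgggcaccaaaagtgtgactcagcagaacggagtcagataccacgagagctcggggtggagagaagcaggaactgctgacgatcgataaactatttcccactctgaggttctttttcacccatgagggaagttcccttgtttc
The windows of CEBPD, KLF15 and PPARG are GC-rich, with 81.5%, 78.5% and 73.5% G and C, and that of NR1H3 is not, with 54%, where the median of 13052 windows was 61.5%. A GC box stood in the windows of 6 of the 10 members, PPARG, CEBPA, CEBPD, EBF2, KLF15 and SREBF1, and in 50.9% of all windows. CEBPD and KLF15 both had 3 GC boxes, and KLF15 also had a CCAAT box 71 bases before its start site, a motif found in 27.6% of all windows. An E-box (CANNTG) was in the windows of 5 members and in 50.8% of all windows. The TATA box (TATAAA, 6.26% of all windows), the C/EBP-type motif (TTNNNCAA, 20.2%), the glucocorticoid motif (TGTTCT, 6.86%) and the STAT-type motif (TTCNNNGAA, 4.46%), each searched on both strands, were in the 200-base window of 0 members. Motifs were matched by letters alone and describe the sequence only.

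In deposited TPM (the share of transcripts in a library, corrected for transcript length so that genes can be compared), the members ranged from strongly to moderately expressed. The mean over 7 libraries was at or above the 95.8th percentile of all genes for CEBPD, PPARG, CEBPA, CEBPB and EBF1. KLF15 and NR1H3 followed at the 86.9th and 84.9th percentiles, SREBF1 at the 75.1st, and EBF2 and ZNF423 were lowest, at the 68.5th and 67.5th. Every member was above 1 TPM in every library. PPARG and CEBPB were the steadiest, with coefficients of variation of 22.3% and 18.5% over the 7 libraries. CEBPD was the least steady at 79.1%, with a highest value 37.24 times its lowest, and CEBPA (63.2%) and KLF15 (56.5%) came next. The ranges of neighbours in this order overlapped, so PPARG, CEBPA, CEBPB and EBF1 cannot be ranked among themselves.

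**Figure D1:**
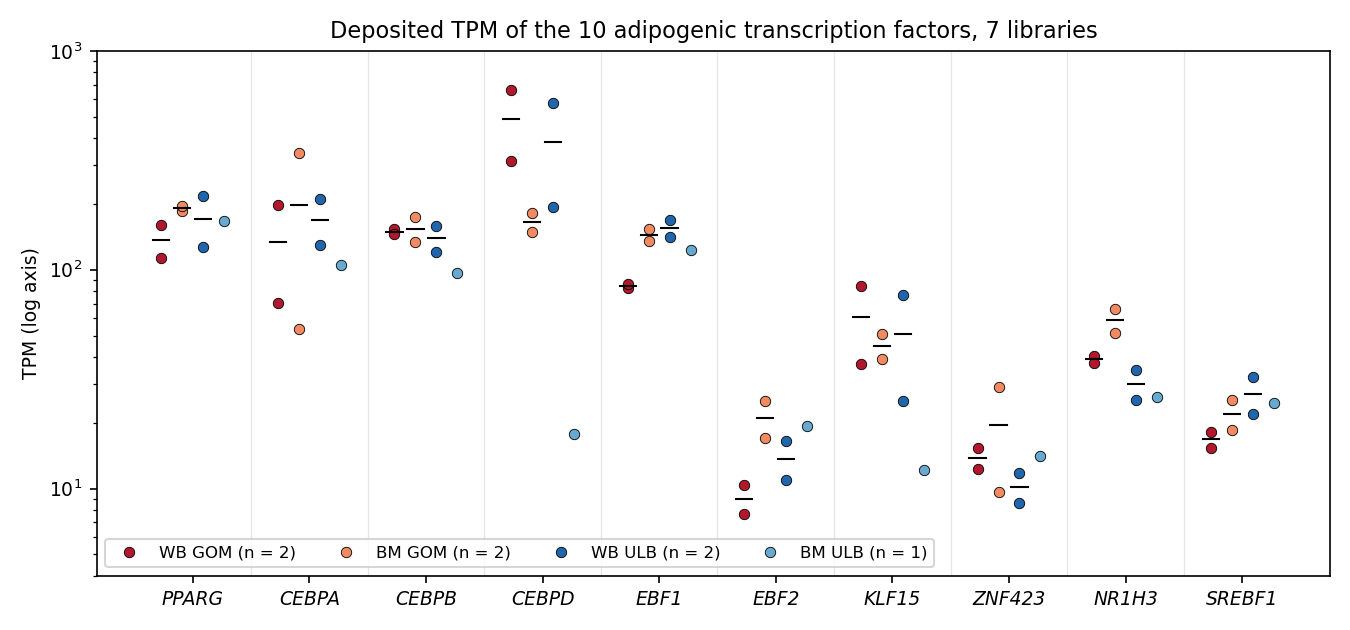
Deposited TPM (log axis) of each member, with 1 point per library coloured by breed and depot and a bar at the mean of groups with 2 libraries. CEBPD spans 17.8 to 662.87 TPM, with BM ULB replicate 2 lowest, whereas PPARG stays between 112.56 and 215.96 TPM.

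Some values of the libraries touch every comparison below. Estimated counts summed to 10833153 to 18627076 per library. Markers of the mature adipocyte were abundant everywhere, with summed TPM of 9121.2 to 16936.9 over 7 markers, and the depot labels matched their markers: WT1, GATA6, TCF21 and BARX1 rose in the GOM and all 6 tested subcutaneous markers fell. Mesothelial markers summed to 171.9 to 570.4 TPM in the GOM and 3.5 to 20.8 TPM in the ULB (4 of 6 tested higher in the GOM, 0 lower). Macrophage markers summed to 964.5 to 2301.4 TPM in the GOM and 578.1 to 787.8 TPM in the ULB (2 of 10 higher), and lymphocyte markers to 151.3 to 310.9 and 51.6 to 91.9 TPM (2 of 10 higher). BM GOM replicate 1 ranked its genes more like BM ULB replicate 2 (Spearman's rho across 14163 genes 0.9306) than like BM GOM replicate 2 (0.9203). Levels also moved with GC content: across 9386 genes, a gene's deviation from its mean correlated with its GC content at rho 0.519 in WB GOM replicate 1 and 0.27 in WB GOM replicate 2, but at -0.126 to -0.296 in the ULB libraries. The part of these differences in the results below was not tested unless a value is given.

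The first comparison asked how the depots differ. No member was called between GOM and ULB, whereas 640 of 17877 tested genes were (3.58%), 410 higher and 230 lower in the GOM, by edgeR's quasi-likelihood test with breed in the model. A call needed a p below 0.05 after Benjamini-Hochberg adjustment and a change of more than 1 in either direction on the log2 scale. Unadjusted p-values fell below 0.05 for 2 of 10 members, NR1H3 and CEBPD, where 19.9% of all tested genes did, and DESeq2 also called 0 members. The median log2 fold change of the members was 0.19, and that of all tested genes 0.02.

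The pair of lipid-responsive factors had values of opposite sign between the depots, neither called. In counts scaled to library size with TMM factors (TMM-scaled CPM), NR1H3 was at 61.3 and 67.3 in WB GOM and 53.6 and 74.7 in BM GOM, against 37.5 and 45.7 in WB ULB and 39.2 in BM ULB. All 4 GOM libraries were above all 3 ULB libraries, as in 7.94% of tested genes. The log2 fold change of NR1H3 was 0.66 (SE 0.24, edgeR adjusted p = 0.159), and 0.39 with a GC correction (adjusted p = 0.394). SREBF1 was at 80.6 and 79.6 in WB GOM and 76.9 and 60.8 in BM GOM, against 139.3 and 83.3 in WB ULB and 107.2 in BM ULB, in TMM-scaled CPM. All GOM libraries were below all ULB libraries, as in 5.4% of tested genes, although WB ULB replicate 2 was only just above WB GOM replicate 1. In deposited TPM, whose sums differ between libraries, the depots overlapped for SREBF1, whereas NR1H3 did not overlap. For SREBF1, BM GOM replicate 1 at 25.37 was above WB ULB replicate 2 at 21.82 and BM ULB replicate 2 at 24.47. With TPM rescaled to the same sum in every library, BM GOM replicate 1 was at 26.52. That was above WB ULB replicate 2 at 23.63 but below BM ULB replicate 2 at 31.61. The log2 fold change of SREBF1 was -0.54 (SE 0.25, edgeR adjusted p = 0.262), and -1.02 with a GC correction (adjusted p = 0.0699).

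EBF1 was at 187.1 and 229.4 in WB GOM and 238.6 and 227.4 in BM GOM, against 311.2 and 330.7 in WB ULB and 276.8 in BM ULB, in TMM-scaled CPM. The 4 GOM libraries were lower than every ULB library, as in 5.4% of tested genes. The log2 fold change was -0.48 (SE 0.25, edgeR adjusted p = 0.311). In deposited TPM, whose sums differ between libraries, the depots overlapped for EBF1, with BM GOM at 153.94 and 135.1 and BM ULB at 123.58. With TPM rescaled to the same sum in every library, the overlap was narrow. BM GOM replicate 1 was then at 160.92 and BM ULB replicate 2 at 159.61. EBF2, its close relative and a marker of precursors that can form thermogenic fat, overlapped between depots at -0.38 (SE 0.26, adjusted p = 0.446). ZNF423, which acts upstream of PPARG in precursors, was at 0.38 (SE 0.36, adjusted p = 0.589). Reads shared by the EBF paralogs were divided by the authors' quantification, and their split was not tested. Progenitor and fibroblast markers summed to 3160.7 to 4257.8 TPM in the GOM and 4828.8 to 8103.4 TPM in the ULB, most of it from DCN and COL3A1. Of 9 tested, 4 had positive values, 1 was higher in the GOM (PI16, log2 fold change 2.10, edgeR adjusted p = 0.0302) and 0 were lower, and their part in the values of EBF1, EBF2 and ZNF423 was not tested.

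PPARG, the receptor without which no fat cell forms, was at 117.6 and 196.8 in WB GOM and 132.7 and 152.7 in BM GOM, against 128.6 and 195.1 in WB ULB and 172.3 in BM ULB, in TMM-scaled CPM. The depots overlapped throughout, and the log2 fold change was -0.13 (SE 0.28, edgeR adjusted p = 0.816). CEBPA, its partner in the mature adipocyte, varied more within a group than between depots. It was at 446.4 and 187.6 in WB GOM, at 83 and 574.3 in BM GOM, at 462.6 and 253.7 in WB ULB and at 236 in BM ULB. The replicates of BM GOM thus bracketed all other libraries, and the log2 fold change of 0.08 (SE 0.59, adjusted p = 0.952) turned negative with a GC correction, with upper-quartile scaling and in TPM.

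CEBPD and KLF15 had the largest positive depot values among the members, at log2 fold changes of 1.41 (SE 0.57, edgeR adjusted p = 0.205) and 0.90 (SE 0.45, adjusted p = 0.291). The value of CEBPD rested largely on BM ULB replicate 2, without which it was 0.65 (adjusted p = 0.618), and KLF15 was then at 0.56. Within the wild boar CEBPD was at 0.68 (SE 0.55) and within the Bama pig at 2.75 (SE 0.79, adjusted p = 0.207), and the test of the difference between breeds gave -2.08 (SE 0.91, adjusted p = 0.97 by edgeR). Within the wild boar and the Bama pig, edgeR called 1.37% and 0.403% of genes and 0 members, while DESeq2 called CEBPD within the Bama pig (adjusted p = 0.00807). In the test between breeds, 4.86% of all genes had an unadjusted p below 0.05 and edgeR called 0 genes (869 with an unadjusted p below 0.05, and 52 called by DESeq2). CEBPB differed by 0.30 (SE 0.24, adjusted p = 0.525), a value that turned to -0.18 with a GC correction.

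**Figure D2:**
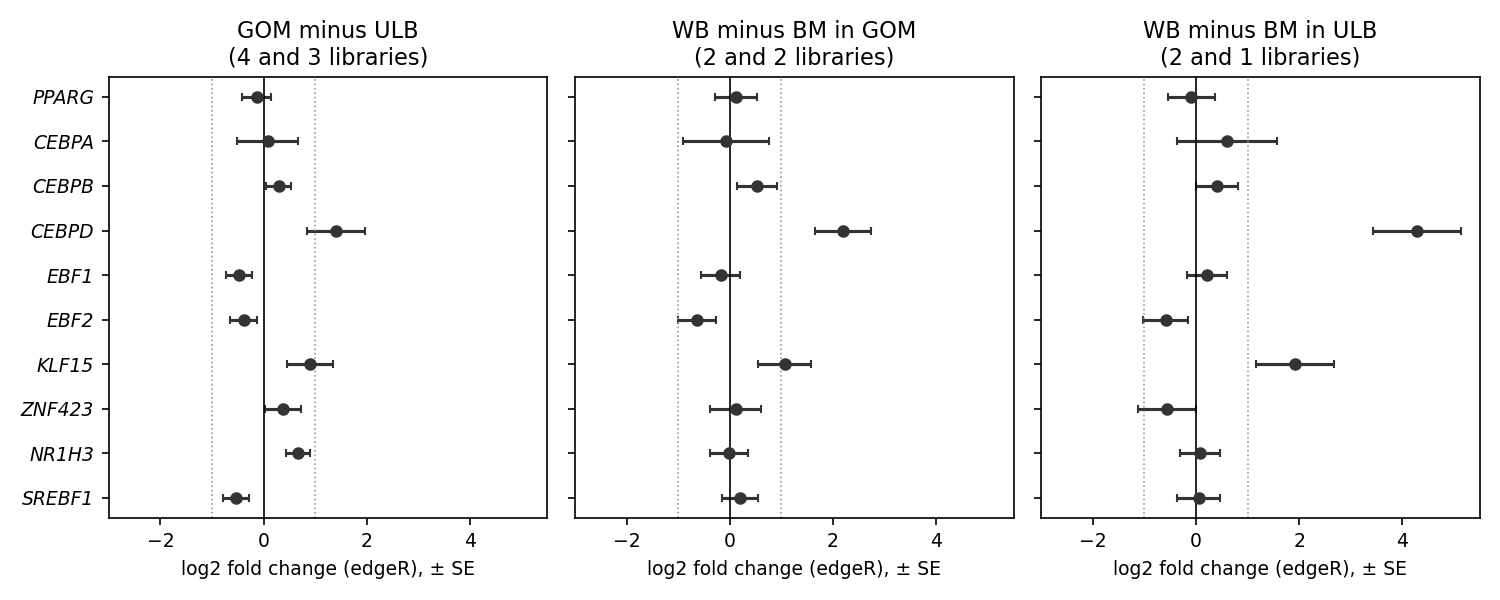
Log2 fold change (x axis, edgeR) of each member (y axis) with 1 standard error either side, for GOM minus ULB, WB minus BM in the GOM and WB minus BM in the ULB, with dotted lines at the fold threshold of 1 in either direction. No point is called in any panel, and CEBPD lies farthest from 0, at 2.20 between breeds in the GOM and 4.28 in the ULB.

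The second comparison asked how the breeds differ. In the GOM, edgeR called 4 of 16615 genes (0.0241%) between 2 WB and 2 BM libraries and none of the 10 members, while DESeq2 called 167 genes and 1 member, CEBPD. One member, CEBPD, had an unadjusted p below 0.05, against 8% of all genes tested. The median log2 fold change was 0.12 over the members and -0.01 over all genes. Scaling matters for directions here: on the log2(TPM + 1) scale the median of all genes was -0.41, and WB GOM lay below BM GOM without overlap in 49.5% of genes in TPM but in 21.5% in TMM-scaled CPM.

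CEBPD, which glucocorticoids and inflammatory signals are known to induce, was at higher levels in WB than in BM in both depots, without a call by edgeR. It was at 300.9 and 747.2 TMM-scaled CPM in WB GOM and 97.5 and 129.7 in BM GOM. In the ULB it was at 179.4 and 477.1 in WB and 16.9 in BM. All 4 WB libraries were above all 3 BM libraries, as in 5% of tested genes, and they were so in TPM as well. In the GOM the log2 fold change of CEBPD was 2.20 (SE 0.55, edgeR adjusted p = 0.564), higher than in 98.9% of tested genes, and DESeq2 gave an adjusted p of 0.00587. Over the alternatives, the value ran from 1.36 without WB GOM replicate 2 to 2.70 without WB GOM replicate 1, where edgeR called it (adjusted p = 0.0385). On the log2(TPM + 1) scale the value was 1.47, against a median of -0.41 for all genes.

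Markers of other cells also differed in level between the breeds. In the GOM all 10 macrophage markers had positive values, with a median log2 fold change of 0.84 and 0 called, and their summed TPM overlapped, at 2301.4 and 1389.1 in WB and 1446.6 and 964.5 in BM. In the ULB 4 of 10 were positive, with a median of -0.20. CD163, a scavenger receptor of macrophages, was at 196.09 and 388.19 TPM in WB GOM, 223.79 and 82.8 in BM GOM, 64.54 and 202.62 in WB ULB and 44.74 in BM ULB. Its log2 fold change between breeds in the ULB was positive, at 1.425. Most markers of the list were negative there, among them CD68 at -1.77 and C1QB at -0.902. Of 6 tested pancreas and liver markers, 2 were lower in WB over both depots and 0 higher: ALB (albumin) with a log2 fold change of -5.66 (edgeR adjusted p = 0.00298) and FGB (a fibrinogen chain) with -4.14 (adjusted p = 0.0159). The part of these markers in the value of CEBPD was not tested.

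In the ULB, with 1 BM library whose spread was taken from the other groups, CEBPD differed by 4.28 (SE 0.86, edgeR adjusted p = 0.119) where 0.252% of genes were called in all. Over both depots with depot in the model it differed by 2.94 (SE 0.59, adjusted p = 0.066), and 0.42% of genes were called. The 7 libraries of that fit come from 4 animals and are counted as independent, which can make its p-values too small. DESeq2 called CEBPD in both fits, with adjusted p-values of 7.79e-07 and 5.61e-07. Leaving out BM ULB replicate 2 brought the value over both depots to 2.20 (adjusted p = 0.386), and leaving out BM GOM replicate 2 or WB GOM replicate 1 made edgeR call it (adjusted p = 0.0233 and 0.0303).

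KLF15, a glucocorticoid-responsive factor that turns on PPARG and the glucose transporter SLC2A4, was likewise highest in WB GOM replicate 2 and WB ULB replicate 2 and lowest in BM ULB replicate 2. It was at 75.9 and 202.3 TMM-scaled CPM in WB GOM, 54.8 and 77.2 in BM GOM, 50 and 135.6 in WB ULB and 24.6 in BM ULB. The breeds overlapped. The log2 fold change of KLF15 was 1.07 (SE 0.52, edgeR adjusted p = 0.63) in the GOM, where it fell to 0.16 without WB GOM replicate 2, 1.92 (SE 0.75, adjusted p = 0.296) in the ULB and 1.40 (SE 0.45, adjusted p = 0.144) over both depots. DESeq2 called the value over both depots (adjusted p = 0.0326).

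CEBPB was at 215.5 and 240.5 TMM-scaled CPM in WB GOM and 129.3 and 183 in BM GOM, the breeds not overlapping there, as in 19.7% of genes for WB above BM. Its log2 fold change of 0.53 (SE 0.39, edgeR adjusted p = 0.702) turned to -0.04 in TPM. Across the 7 libraries, log2(TPM + 1) of CEBPD and KLF15 had a Pearson's r of 0.92, CEBPB and KLF15 of 0.84 and CEBPB and CEBPD of 0.77. These were the 3 highest among the 45 pairs of members, and they describe 7 libraries that share animals, depth and GC dependence.

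**Figure D3:**
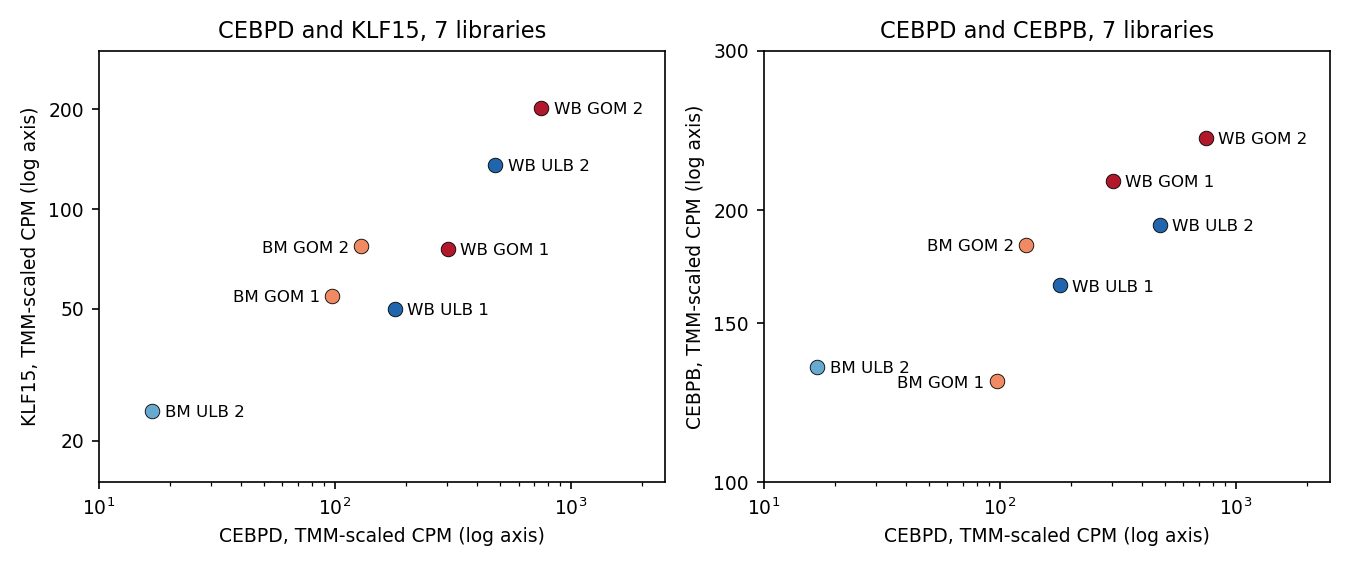
TMM-scaled CPM (both axes log) of CEBPD against KLF15 on the left and against CEBPB on the right, with 1 labelled point per library coloured by breed and depot. WB GOM replicate 2 is highest in all 3 genes, at 747.2, 202.3 and 240.5, and BM ULB replicate 2 is lowest in CEBPD and KLF15, at 16.9 and 24.6.

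The remaining members showed smaller breed values, none of them called. EBF2 was at 31 and 26.9 TMM-scaled CPM in WB GOM and 51.6 and 38 in BM GOM. WB lay below BM in the GOM without overlap, as in 21.5% of genes, with a log2 fold change of -0.64 (SE 0.37, edgeR adjusted p = 0.645) there and -0.61 (SE 0.26, adjusted p = 0.214) over both depots. Over both depots, CEBPD, KLF15 and EBF2 had an unadjusted p below 0.05, 3 of 10 members against 21.6% of genes. EBF1 (-0.17, SE 0.38), PPARG (0.13, SE 0.41), CEBPA (-0.08, SE 0.83), ZNF423 (0.12, SE 0.50), NR1H3 (-0.01, SE 0.36) and SREBF1 (0.21, SE 0.35) were all within 1 standard error of 0 in the GOM. PPARG, ZNF423 and SREBF1 turned negative in TPM.

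The genes around these factors were read from 6 lists of textbook genes. Between depots, 2 of 14 other positive regulators of adipogenesis fell in the GOM and 0 rose, where 1.29% of all tested genes fell and 2.29% rose. PPARGC1A, the coactivator of PPARG in mitochondrial and thermogenic programmes, was at 0.32 to 1.01 TPM in the 4 GOM libraries and at 3.24 to 5.05 TPM in the 3 ULB libraries, a log2 fold change of -3.03 (SE 0.44, edgeR adjusted p = 0.00464). EBF3, the third EBF paralog, was at 4.71 and 2.79 TPM in WB GOM, 16.73 and 9.09 in BM GOM, 20.69 and 16.18 in WB ULB and 19.8 in BM ULB, a log2 fold change of -1.71 (SE 0.33, adjusted p = 0.0184). EBF1 and EBF2 had negative values next to it, neither called. EBF3 lost its call in TPM and without either WB GOM replicate or WB ULB replicate 1, and PPARGC1A lost it without BM ULB replicate 2 (adjusted p = 0.0649).

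Of 17 tested repressors of adipogenesis, 1 rose in the GOM and 0 fell, where 2.29% of all tested genes rose and 1.29% fell. Positive values were found for 14, with a median log2 fold change of 0.50 against 0.02 over all tested genes. The share of all genes with a positive value was not counted, and the list as a whole was not tested. The gene called was ID1, an inhibitor of basic helix-loop-helix proteins, at 30.35 to 167.15 TPM in the GOM and 6.64 to 23.33 TPM in the ULB (log2 fold change 2.81, SE 0.58, edgeR adjusted p = 0.0274). That call was lost on the log2(TPM + 1) scale (adjusted p = 0.063), with a GC correction (adjusted p = 0.057) and without any one of 4 libraries, WB GOM replicate 1 and the 3 ULB libraries. Mesothelial, macrophage and lymphocyte markers were higher in the same libraries, and their part in the value of ID1 was not tested.

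Among 16 target genes of NR1H3 and SREBF1, 1 rose and 1 fell in the GOM, where 2.29% of all tested genes rose and 1.29% fell. SCD5, a fatty acid desaturase, was at 7.33 to 13.75 TPM in the GOM and 1.42 to 2.69 TPM in the ULB (log2 fold change 2.53, SE 0.36, edgeR adjusted p = 0.00461), and it was called under every alternative run. PNPLA3, a lipase known as a target of SREBF1, was at 12.66 to 27.38 TPM in the GOM and 53.9 to 74.05 TPM in the ULB (log2 fold change -1.70, SE 0.29, adjusted p = 0.0112), and lost its call without WB ULB replicate 1 or BM ULB replicate 2. Neither NR1H3 nor SREBF1 itself was called, so the targets include genes on both sides while the factors stayed below the threshold.

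No gene was called among 17 adipocyte target genes, 13 receptor partners and coregulators and 6 genes of SREBP processing. The largest values in these lists were those of LEP, the hormone leptin (log2 fold change -1.36, SE 0.33, edgeR adjusted p = 0.054), DGAT2, which makes triglyceride (0.77, SE 0.44), RXRG, a partner of PPARG and NR1H3 on DNA (1.18, SE 0.37), MED1, a coactivator subunit (-0.71, SE 0.24), INSIG2, which holds the SREBF1 precursor in the membrane (-0.75, SE 0.29), and MBTPS1, a protease that cuts it (0.41, SE 0.23). LEP was called by DESeq2 (adjusted p = 0.00109), with upper-quartile scaling, without a filter and with a GC correction.

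**Figure D4:**
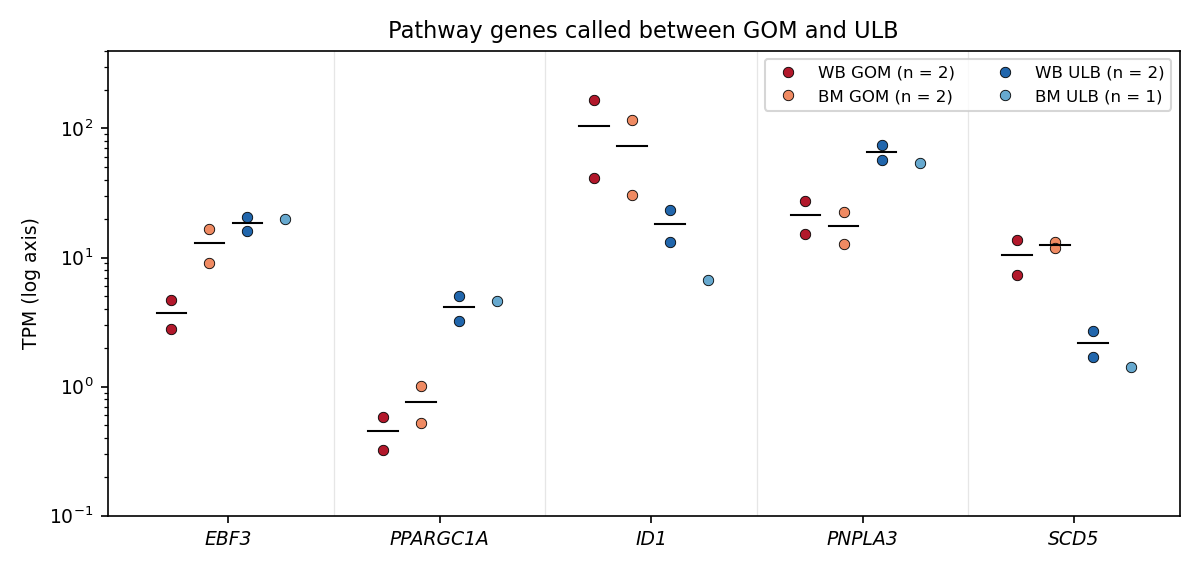
Deposited TPM (log axis) of the 5 genes of the pathway lists that edgeR called between depots, with 1 point per library coloured by breed and depot and a bar at the mean of groups with 2 libraries. PPARGC1A and PNPLA3 are lower in each GOM library than in each ULB library, SCD5 and ID1 are higher, and EBF3 overlaps, with BM GOM replicate 1 at 16.73 TPM above WB ULB replicate 2 at 16.18.

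Between breeds in the GOM, no gene of the 6 lists was called. Of the 16 target genes of NR1H3 and SREBF1, 14 had positive values, with a median log2 fold change of 0.85 against -0.01 over all genes. These values follow TMM scaling. On the log2(TPM + 1) scale the median of all genes was -0.41, so the number of positive values depends on the scaling. SCD, the main desaturase of fat, was at 590.27 and 3850.41 TPM in WB GOM and 657.35 and 665.12 in BM GOM (log2 fold change 2.43, SE 1.04, edgeR adjusted p = 0.623), and ACLY, which supplies acetyl-CoA, at 117.03 and 883.01 against 268.42 and 201.96 (1.79, SE 0.93). WB GOM replicate 2 alone stood high in both genes. In the other lists, the largest values were those of EBF3 (-1.20), KLF9 (0.97), NCOR1 (-1.01), EP300 (-0.68), INSIG1 (0.99), MBTPS1 (0.48), TCF7L2 (-1.99), WNT10B (1.14), ADIRF (1.77) and SLC2A4 (1.02). The corepressor NCOR1, the coactivator EP300 and the Wnt effector TCF7L2 were high in BM GOM replicate 1, at 54.38, 72.42 and 107.13 TPM against at most 13.94, 23.62 and 13.99 in the other GOM libraries, and next highest in BM ULB replicate 2.

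For each member, the genes with the most similar pattern over the 7 libraries were sought among 10142 genes by Pearson's r of log2(TPM + 1), as a description. They were ZKSCAN5 (0.962) and DNAJB12 (0.961) for PPARG, PPOX (0.984) and KLHL22 (0.951) for CEBPA, GNB1L (0.996) and GSDMD (0.99) for CEBPB, and SLC40A1 and SULT1A3 (both 0.982) for CEBPD. For EBF1 they were TMEM181 and LMAN1 (both 0.993), for EBF2 LMNTD1 (0.981) and ODF2L (0.976), for KLF15 SYS1 (0.981) and MRPS27 (0.977), and for ZNF423 RGS12 (0.972) and KLRD1 (0.959). FLOT1 (0.989) and AP1S3 (0.988) were nearest to NR1H3, and GPX7 (0.96) and FAM81A (0.958) to SREBF1. With 7 points and this many genes searched, high values of r arise for any pattern.

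Hi-C, which counts contacts between distant pieces of DNA, was read at the same loci. It was made from the adipocyte-containing layer and the RNA from whole tissue, so they need not report on the same mix of cells. The first principal component of the contact map (PC1, a score without unit, positive in the gene-rich, active A compartment and negative in the B compartment) was deposited per 20-kb bin. The start sites of all 10 members were in compartment A in all 7 libraries, as were 78.4% of 13052 start sites, and 0 of 10 switched between breeds, against 1.59% of start sites in the GOM and 2.29% in the ULB. The score differed much between members. The mean PC1 of NR1H3 was 66.2, higher than in 95% of bins with a start site, and those of EBF2 (16.2) and ZNF423 (17) were lowest, while the other 7 lay between 27 and 48. PC1 has mean 0 on each chromosome, so levels on different chromosomes are only roughly comparable.

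PPARG had the largest difference in compartment score between depots. Its PC1 was 53.3 and 36.9 in WB GOM and 35.1 and 29.3 in BM GOM, against 60.3 and 56.4 in WB ULB and 64.7 in BM ULB. All GOM libraries were below all ULB libraries, as they also were for EBF2, and the share of all bins that did so was not counted. An unadjusted p below 0.05 between depots, which PPARG also had, was found in 21.2% of bins. The difference of -20.98 (SE 5.05, limma adjusted p = 0.0647 over 113298 bins) was lower than in all but 0.2% of bins with a start site. It missed the threshold, which 2.3% of bins passed, and no member was called. Without WB GOM replicate 1 the difference was -27 and called (adjusted p = 0.04997), without BM ULB replicate 2 it was -13.29 (adjusted p = 0.343), and the median over the 7 bins of the gene gave -14.79. The RNA level of PPARG, as given above, overlapped between the depots.

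EBF2 was the other member with an unadjusted p below 0.05, against 21.2% of bins. Its PC1 was 17.1 and 16.5 in WB GOM and 9.6 and 6 in BM GOM, against 21.2 and 20 in WB ULB and 23.1 in BM ULB, a difference of -8.43 (SE 3.07, limma adjusted p = 0.165) that shrank to -3.81 without BM ULB replicate 2. Over the 12 bins of the EBF2 gene the median PC1 was 4.6 and -1.3 in WB GOM, -5.7 and -4.1 in BM GOM, 14.8 and 12.4 in WB ULB and 10.2 in BM ULB. The start site was thus in A in every library. The gene-body median was near 0 in the GOM, from -5.7 to 4.6 and negative in 3 of the 4 libraries, and positive in all ULB libraries. This change of sign was not tested, and the share of all genes that show it was not counted. The other 8 members differed by -3.06 to 5.58 between depots, with adjusted p-values from 0.385 to 0.953.

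**Figure D5:**
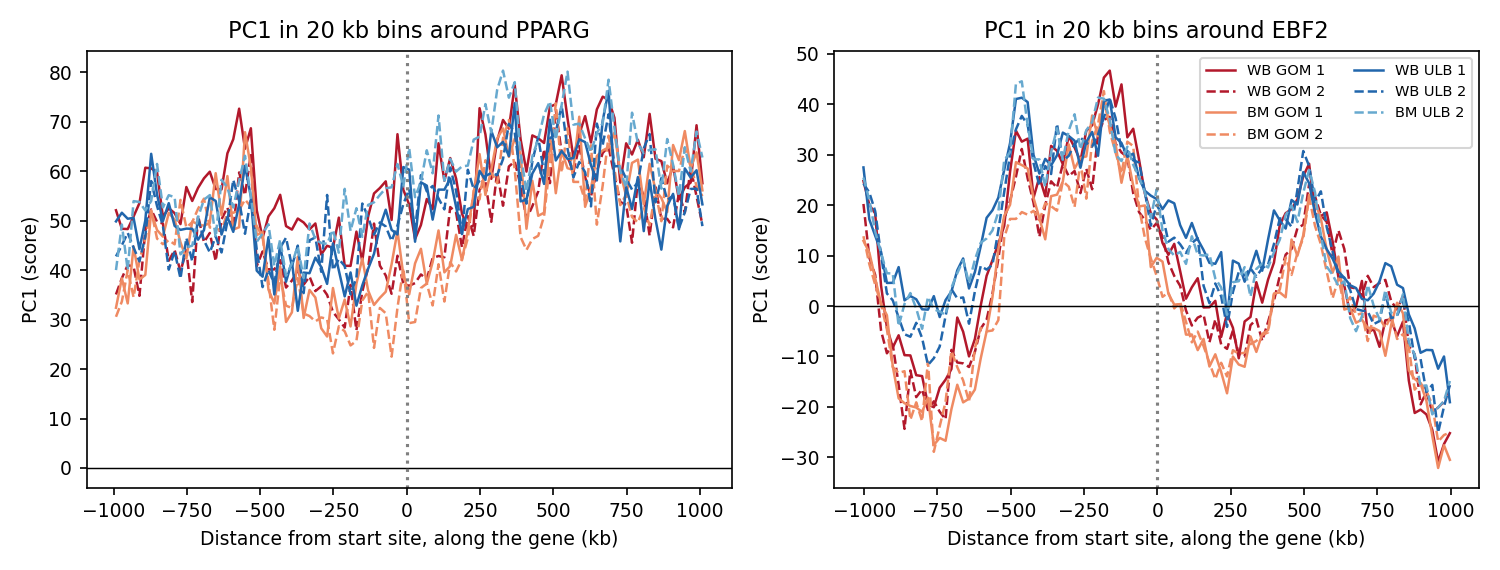
PC1 (y axis, score) in 20-kb bins against the distance from the start site in kb (x axis, along the direction of the gene, dotted line at the start site) for PPARG and EBF2, with 1 line per Hi-C library coloured by breed and depot and replicate 2 dashed. At the PPARG start site the GOM lines lie between 29.3 and 53.3 and the ULB lines between 56.4 and 64.7, and downstream of the EBF2 start site the BM GOM lines fall below 0.

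Between breeds, over both depots, the PC1 differences of the members ran from -1.26 for CEBPB to 7.39 for ZNF423 (SE 3.70, limma adjusted p = 0.465). No member was called or had an unadjusted p below 0.05, where 0.00971% of bins were called and 12.1% had an unadjusted p below 0.05. CEBPD, the member with the largest breed value in RNA, differed by 4.49 in PC1 (SE 2.59, adjusted p = 0.525).

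Topologically associating domains (TADs), stretches of DNA that contact themselves more than their surroundings, came as 1 list per breed and depot with replicates merged, so they carry no replicate check. CEBPB, CEBPD, EBF1, EBF2, PPARG, SREBF1 and ZNF423 lay in a TAD whose edges both matched within 40 kb between the breeds and between the depots. In the GOM, 7 of 10 members had both TAD edges shared between WB and BM, against 57.5% of start sites, and in the ULB 8 of 10, against 59.7%. Between the depots of the wild boar 8 of 10 members had both edges shared (54.5% of start sites), and between those of the Bama pig 7 of 10 (51.4%). EBF1, EBF2 and ZNF423 each were the sole placed start site in their TAD in every list. The EBF1 TAD was the longest, at 1020 to 1040 kb, and its start site lay 18 kb from the TAD edge, where the median over start sites was 76.1 to 83.7 kb. CEBPB and EBF2 were also close to an edge, at 22.6 kb and 12.4 to 32.4 kb.

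The other 3 members differed between lists. CEBPA lay in a TAD of 220 to 240 kb in WB GOM, WB ULB and BM ULB and of 460 kb in BM GOM, where it shared the domain with more genes (6 start sites in place of 4). KLF15 lay in a TAD of 160 kb in WB GOM and BM ULB, of 280 kb in BM GOM and in none in WB ULB. NR1H3 lay in a TAD of 500 kb in BM GOM, 3.2 kb from its edge, and in none in the other 3 lists, where the nearest edge was 36.8 to 56.8 kb away. BM GOM thus held the longest or the only domain for each of these 3, and its list also had the fewest TADs, 3682 against 3850 to 3942 in the others.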

How the data were processed

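Adipose tissue of 4 pigs was measured, in 7 RNA-seq and 7 Hi-C libraries of 4 groups. Libraries were taken as replicates by their labels, and p-values measure the spread between them. RNA libraries were stranded and depleted of rRNA. The authors quantified them with Kallisto (0.43.0 in the submitters' processing notes) on Sscrofa11.1 and deposited an estimated count and a TPM value per gene and library. The estimated counts, as deposited, became integers by rounding before the tests. TPM of the listed genes summed to 774260 to 956616 per library. The authors also deposited a score per 20-kb bin and Hi-C library, named an A-B index but with mean 0 on each chromosome and read here as PC1, and TAD lists from merged replicates. The PC1 scores and TAD lists carry no depth. The members and gene lists were chosen with earlier results of these data known.

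Genes with TPM above 0.1 in every library of at least 1 group were tested with edgeR 4.0.16 (TMM, quasi-likelihood) in R 4.3.3, with breed and depot as terms, or in a 4-group model for values within a breed, within the ULB and for the interaction. The breeds in the GOM were compared on GOM libraries alone. A call needed p below 0.05 after Benjamini-Hochberg adjustment and more than 1 in either direction on the log2 scale. PC1 was tested with limma 3.58.1. All tests are two-sided. A switched start site had one PC1 sign in all WB and the other in all BM libraries of a depot. TAD edges were matched within 40 kb. Alternatives were DESeq2 1.42.0, other scalings and filters, limma on log2(TPM + 1) and log2(TPM + 0.1), a replicate block, leaving out each library and, chosen after seeing the data, a GC correction and leaving out the 2 BM libraries that stood apart. Pathway genes were named by a rule: of each list and comparison, up to 2 called genes with the largest rise and 2 with the largest fall, or, where none was called, the 2 with the largest absolute value and a mean TPM of at least 1. One gene of the lists is not reported here, and its list was counted without it. Genes were placed through their symbols (13521 of 21280). Promoter sequence is that of the RefSeq assembly of Sscrofa11.1, whose 18 autosomes match the Hi-C values in length. The scripts were tested on simulated data. Python 3.11.15 and matplotlib 3.10.9 were used. Protein sequences were not used here.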

Additional observations from a re-analysis of the deposited data

Results flagged for a closer look

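Among the 4 GOM libraries and the 4 WB libraries, 3 values of members stood far from the rest of their group. In all 60 such groups of values were looked at (10 members in TPM, TMM-scaled CPM and PC1). The cutoff is passed by about 1 in 20 groups of independent, normally distributed values of 1 kind. These groups share libraries and reads, and the WB groups mix depots, so the number that chance gives here is not known. KLF15 in WB GOM replicate 2 was at 202.3 TMM-scaled CPM, against 54.8 to 77.2 in the other GOM libraries. SREBF1 in WB ULB replicate 1 was at 139.3 TMM-scaled CPM, against 79.6 to 83.3 in the other WB libraries. This library also carried skeletal muscle markers, with a summed TPM of 411.3 over 4 markers against at most 8.4 elsewhere, whose part in the value of SREBF1 was not tested. The PC1 of EBF1 was 31.7 in WB GOM replicate 2, against 33.4 to 33.6 in the other WB libraries, a gap of under 2 units.

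In 3 cases the libraries of a member moved in opposite directions in 2 breeds or 2 depots, and the difference between them was not tested. The PC1 of PPARG was higher in WB than in BM by 12.9 in the GOM, with both WB libraries above both BM libraries, and differed by -6.4 in the ULB. The PC1 of EBF2 was likewise higher in WB by 9 in the GOM and differed by -2.5 in the ULB. The PC1 of CEBPD was lower in the GOM than in the ULB by 2.9 in the wild boar, a difference of -2.9, and differed by 2.9 in the Bama pig. In each case the ULB of the Bama pig was 1 library, and the share of all bins with such a pattern was not counted.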

How the results depend on the processing

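No member changed its side of the threshold between depots. Of 290 alternative values of the 10 members in the depot comparison and in the breed comparison of the GOM, 254 kept sign and side, 34 changed sign without being called and 2 were newly called, both for CEBPD between breeds. DESeq2 called more genes than edgeR in every comparison: 1399 between depots, 961 in wild boar, 535 in Bama pig, 52 for the interaction, 167 between breeds in the GOM with 1 member, 418 in the ULB and 1157 over both depots. Between depots, log2(TPM + 1) gave 329 calls, no filter 999, and leaving out BM GOM replicate 1 and BM ULB replicate 2 together 377. Between breeds in the GOM, log2(TPM + 1) and the GC correction gave 0 calls, log2(TPM + 0.1) gave 2 and no filter 26. PC1 centred on the chromosome median gave 22 bins between breeds.

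The sources used here do not tie replicate numbers to animals, and the numbers were not shown to pair the samples. Deviations of same-numbered libraries correlated at 0.22 between WB GOM and WB ULB, the only pair of groups that can share pigs. Between different pigs they correlated at 0.2 (WB GOM and BM GOM) and -0.13 (WB ULB and BM GOM). The value within the wild boar rests on 2 pigs and cannot decide the pairing. With the replicate block, edgeR called 793 genes between depots, 15 between breeds in the GOM and 91 in the ULB, there including CEBPD (adjusted p = 0.0301), and limma called 0 bins between depots (20287 with an unadjusted p below 0.05). Under the block CEBPA was at 0.39 and NR1H3 at 0.008 between breeds in the GOM. Between depots the block was breed with replicate number, and between breeds it was the replicate number alone. The latter joins WB and BM libraries, which are different pigs, so the breed fits with the block do not pair animals.

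Leaving out each library gave 230 (without BM ULB replicate 2) to 656 calls between depots, 57 to 386 in wild boar, 26 to 65 in Bama pig, 0 to 1 for the interaction, 0 to 123 (without WB GOM replicate 1) between breeds in the GOM with 0 to 1 members, 0 to 106 in the ULB and 1 (without BM ULB replicate 2) to 1805 (without BM GOM replicate 2) over both depots. Bins ran from 0 to 700 between depots and from 6 to 1523 between breeds. Log2 fold changes that changed sign between depots ran from -0.37 to 0.005 for PPARG and -0.61 to 0.40 for CEBPA. Between breeds in the GOM they ran from -0.32 to 0.45 for PPARG, -0.88 to 1.93 for CEBPA, -0.42 to 1.03 for ZNF423, -0.23 to 0.27 for NR1H3, -0.59 to 1.68 for KLF9, -1.70 to 0.41 for NCOR1, -1.29 to 0.42 for EP300, -2.81 to 0.19 for TCF7L2 and -0.56 to 2.62 for ACLY. The cause was not tested, and an arm left with 1 library was assumed to vary like the other groups.

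Other signs changed as follows. Between depots CEBPA was at -0.38 and CEBPB at -0.18 with the GC correction, and CEBPA at -0.15 on log2(TPM + 0.1), -0.14 on log2(TPM + 1), -0.008 with upper-quartile scaling and -0.22 without the 2 BM libraries. Between breeds in the GOM, log2(TPM + 1) and log2(TPM + 0.1) gave -0.50 and -0.51 for PPARG, -0.037 and -0.038 for CEBPB, -0.28 and -0.29 for ZNF423, -0.36 and -0.37 for SREBF1 and -0.11 for MBTPS1 in both. The GC correction gave -0.15 for ZNF423 and -0.057 for SREBF1, upper-quartile scaling -0.010 for PPARG and -0.009 for ZNF423, and for NR1H3 DESeq2 gave 0.005 and the 4-group fit 0.004. In these TPM fits all genes had a median of -0.41 and -0.57. TPM of the listed genes summed to 775297 and 834148 in WB GOM and to 956616 and 932686 in BM GOM. The part of these sums in the medians was not tested. With 2 libraries a group, and 1 in BM ULB, precision is limited: standard errors of members ran up to 0.59 between depots and 0.83 between breeds in the GOM on the log2 scale, and a change of 1 or less could not be called by construction.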
